A study of Homo sapiens with 25 samples.

Results

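The RNA that came down with wild-type IGF2BP1 and with its S181E mutant was compared in cells under oxidative stress. RNA immunoprecipitation sequencing (RIP-Seq) captures an RNA-binding protein from a lysate and sequences the RNA attached to it. Of the 25 RIP-Seq libraries of the series, the comparison took 6, which are 3 for S181E and 3 for wild-type, chosen by genotype and treatment. All 6 came from HCT116, a human colorectal carcinoma cell line, with the genotype Tet-OsTIR1-PURO, IGF2BP2 KO and IGF2BP3 KO and with either mCherry-IGF2BP1 WT or mCherry-IGF2BP1 S181E. The cells received 500 µM sodium arsenite, an inducer of oxidative stress, for 2 hours. The fusions were brought in by lentivirus, mCherry-positive cells of each line were sorted through 1 narrow gate, and dishes were grown separately. Each genotype was represented by a single sorted population, so a difference between the mutants and a difference between these lines cannot be told apart. For comparison, 6 libraries of the same lines under PBS control were used. Y396E and RQ, other IGF2BP1 mutants in the same background, gave 3 and 2 libraries under arsenite and 3 each under control. Parental HCT116 without any fusion gave 1 library under arsenite and 1 under control. The paper calls its background control cells nonengineered, and by that account they also lack the IGF2BP2 and IGF2BP3 knockouts. All 23 mCherry libraries entered the fit.

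IGF2BP1 binds mRNAs through RNA recognition motifs and KH domains, is known to stabilise many of its targets and to control their translation, and gathers with untranslated mRNAs in stress granules. The serine exchanged in S181E lies in the disordered linker 1 between the RNA recognition motifs and the KH domains. The S181E exchange places a glutamate there, whose negative charge is used to mimic a phosphorylated serine. In the genome the site is at chr17:49038295-49038321 (hg38, plus strand), in exon 6 of IGF2BP1, which encodes a protein of 577 residues. The 27 bases around it are shown because they hold the residue that was exchanged, with the serine codon (chromosome 17, 49038307 to 49038309) in capitals.
IGF2BP1 reference, serine of S181E: ccccgccagggcTCAcctgtggcagcg
The base sequence of the S181E construct was not used here, and gene counts cannot show which codon a library carried.

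The total count ranged from 29414260 to 46914852 in the wild-type and from 25930248 to 39330883 in the S181E libraries, of which 69.7 to 76.6% fell on protein-coding genes. Mitochondrial rRNA took 22.2 to 29.1%. The 10 most abundant protein-coding genes held 23.1 to 25.4% of the protein-coding counts in wild-type and 17.8 to 19.6% in S181E libraries. The mRNA of the bait was at 40.6, 42.4 and 37.2 CPM in the wild-type libraries and 40.8, 42.3 and 41.2 CPM in the S181E libraries, and at a count of 0 in the parental library. The level of this mRNA in the RIP therefore overlapped between the groups (log2 fold change 0.04, SE 0.12, adjusted p = 0.89). It does not measure how much bait protein was present or captured, which was not analysed here. Of 13 colon epithelial marker genes 8 were above 10 CPM in all 6 libraries, while 4 stayed below 1 CPM in all 6, of which 2 were at 0. The sum of the 13 was 1880 to 1951 CPM in wild-type and 2070 to 2260.0 CPM in S181E. Among 15 mesenchymal and blood cell markers, 14 stayed below 1 CPM in all 6 libraries and 6 were at 0.

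CPM stands for read counts scaled to library size with TMM factors, and a log2 fold change is S181E over wild-type, with its standard error (SE) from the fit. A call needed an adjusted p under 0.05 (edgeR's quasi-likelihood test, Benjamini-Hochberg) and a change of more than 20%. Under arsenite 466 of 8734 genes tested were lower with S181E (5.34% of the genes) and 192 were higher (2.2%), so that 70.8% of the calls were toward lower RIP signal. An unadjusted p under 0.05 was found for 1722 genes. When the replicate number entered as a block, this became 751 lower and 354 higher genes (68% lower). The split also depended on the libraries fitted, since a fit of the 6 libraries alone called 1031 genes lower and 851 higher (54.8% lower), and 1140 and 994 with the block (53.4% lower). It depended on the scaling as well. With total counts and no TMM factors 283 genes were lower and 867 higher (24.6% of the calls lower, all-gene median 0.17). With TMM over the 1532 genes not above the parental RIP it was 513 lower and 66 higher (88.6% lower, median -0.09). Both parental libraries defined those 1532 genes. The control one had 742207 protein-coding counts, against 13986350 or more in each mCherry library. The lower genes had a median log2 fold change of -0.59, and 48 of them were below -1. The higher genes had a median of 0.48, and 18 were above 1. The median over all genes tested was 0.006. All 466 lower genes had the 3 S181E libraries below the 3 wild-type libraries, which held for 1688 genes in all (19.3%). Of the 192 higher genes 191 had all S181E libraries above all wild-type libraries, as had 1625 genes in all (18.6%), the exception being MRFAP1 (69.0, 64.4 and 83.9 CPM in the wild-type libraries and 80.6, 104 and 135 CPM in the S181E libraries). Leaving out 1 library at a time gave 266 to 358 lower genes, with 266 without S181E replicate 2 and 304 without wild-type replicate 1. It gave 88 to 119 higher genes, with 88 without wild-type replicate 2, 98 without S181E replicate 2, 104 without wild-type replicate 3, 117 without S181E replicate 3, 100 without wild-type replicate 1 and 119 without S181E replicate 1.

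**Figure D1:**
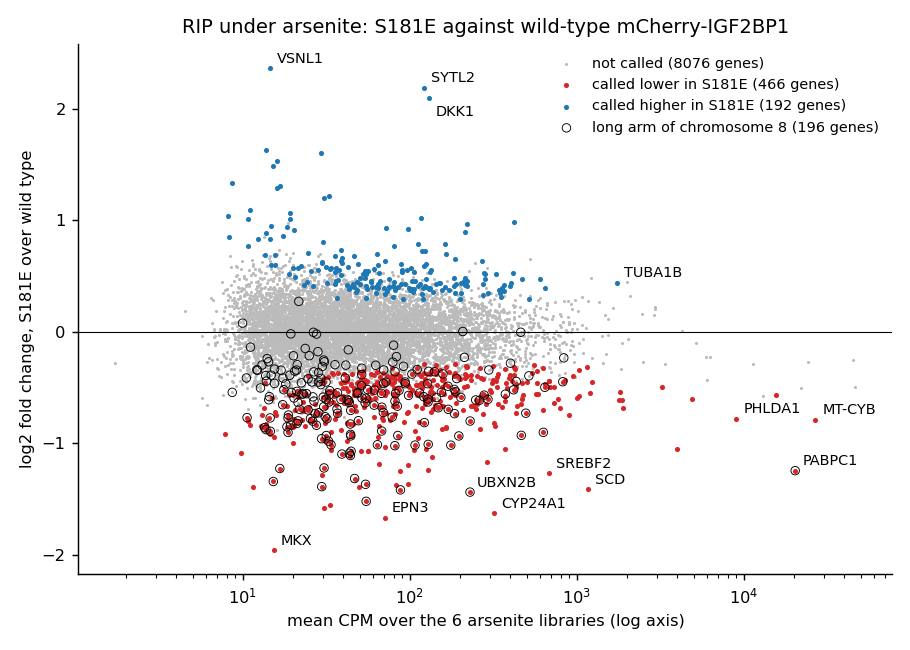
Log2 fold change of S181E over wild-type (y axis) against mean CPM over the 6 arsenite libraries (log x axis) for 8734 genes, with the 466 lower genes in red, the 192 higher genes in blue and genes of the long arm of chromosome 8 ringed. The red points reach -1.96 (MKX) and the blue points 2.36 (VSNL1), and the most abundant called genes lie below 0.

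The gene with the lowest log2 fold change was MKX, a homeobox transcription factor (chromosome 10, 27672874 to 27746060, minus strand). MKX was at 22.6, 24.9 and 25.5 CPM in the wild-type libraries and 6.86, 4.68 and 7.20 CPM in the S181E libraries. The groups lay far apart, and the wild-type values were all above the single parental value of 18.3 CPM while the S181E values were all below it (log2 fold change -1.96, SE 0.22, adjusted p = 1.8e-06). EPN3, an endocytic adaptor of the epsin family, was at 112, 105 and 106 CPM in the wild-type libraries and 35.4, 29.5 and 37.0 CPM in the S181E libraries (log2 fold change -1.67, SE 0.15, adjusted p = 3.5e-08). CYP24A1, the vitamin D 24-hydroxylase, was at 485, 478 and 490.2 CPM in the wild-type libraries and 161, 153 and 156 CPM in the S181E libraries (log2 fold change -1.63, SE 0.10, adjusted p = 1.8e-10). The replicates of each line were close to each other for both genes, and the S181E level of CYP24A1 was near the parental 137 CPM. SUSD2 was at 41.5, 47.0 and 49.9 CPM in the wild-type libraries and 17.5, 13.8 and 14.8 CPM in the S181E libraries (log2 fold change -1.59, SE 0.30, adjusted p = 0.0012).

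SCD encodes stearoyl-CoA desaturase, which makes monounsaturated fatty acids, and it was the most abundant of the 9 lowest genes described. SCD was at 1699.9, 1643 and 1715 CPM in the wild-type libraries and 603, 657 and 644 CPM in the S181E libraries (log2 fold change -1.41, SE 0.10, adjusted p = 2.3e-09). The S181E level was below the parental 1002 CPM. MUC12, a transmembrane mucin, was at 17.4, 13.5 and 19.2 CPM in the wild-type libraries and 8.25, 6.72 and 4.01 CPM in the S181E libraries (log2 fold change -1.40, SE 0.28, adjusted p = 0.0021). The other 3 of the lowest were NIPAL2 (log2 fold change -1.52), UBXN2B, a cofactor of the p97 ATPase (-1.44), and the chromatin remodeler CHD7 (-1.42), and all 3 are genes of the long arm of chromosome 8. All 9 were called without each of the 6 libraries in turn.

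At the other end, VSNL1, a neuronal calcium sensor, was at 5.16, 3.67 and 5.28 CPM in the wild-type libraries and 28.2, 23.9 and 21.0 CPM in the S181E libraries (log2 fold change 2.36, SE 0.48, adjusted p = 0.0026). SYTL2, an effector of RAB27 in vesicle transport, was at 39.7, 40.0 and 51.2 CPM in the wild-type libraries and 202, 176 and 221 CPM in the S181E libraries (log2 fold change 2.19, SE 0.20, adjusted p = 8.8e-08). DKK1, a secreted antagonist of WNT signalling, was at 49.1, 52.3 and 45.6 CPM in the wild-type libraries and 223, 225 and 182 CPM in the S181E libraries (log2 fold change 2.10, SE 0.16, adjusted p = 6.7e-09). For these genes the S181E libraries were all above the wild-type and the parental library, which was at 5.58 CPM for VSNL1, 51.4 CPM for SYTL2 and 133 CPM for DKK1. NPNT, an extracellular matrix ligand of integrins, was at 5.95, 7.23 and 6.85 CPM in the wild-type libraries and 21.4, 18.1 and 22.6 CPM in the S181E libraries (log2 fold change 1.63, SE 0.27, adjusted p = 2.5e-04). TUBA4A, an alpha-tubulin, was at 17.3, 14.58 and 11.86 CPM in the wild-type libraries and 45.22, 44.14 and 44.02 CPM in the S181E libraries (log2 fold change 1.60, SE 0.24, adjusted p = 1.1e-04). Reads shared with near-identical tubulin copies were not counted, so the tubulin values are uncertain. GNAL, a G protein alpha subunit, had a log2 fold change of 1.53, C1orf116 of 1.48, the phospholipase C gene PLCE1 of 1.34, the microtubule-associated EML1 of 1.31 and the keratin KRT80 of 1.29. The parental arsenite library was above the means of both lines for PLCE1 (13.9 CPM, against 12.4 CPM in S181E). It was between the means for TUBA4A, GNAL, EML1 and KRT80, and below both for NPNT and C1orf116. Of the 10, only PLCE1 lost its call when 1 library was left out (log2 fold change 1.17, adjusted p = 0.067 by the same test without wild-type replicate 3).

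**Figure D2:**
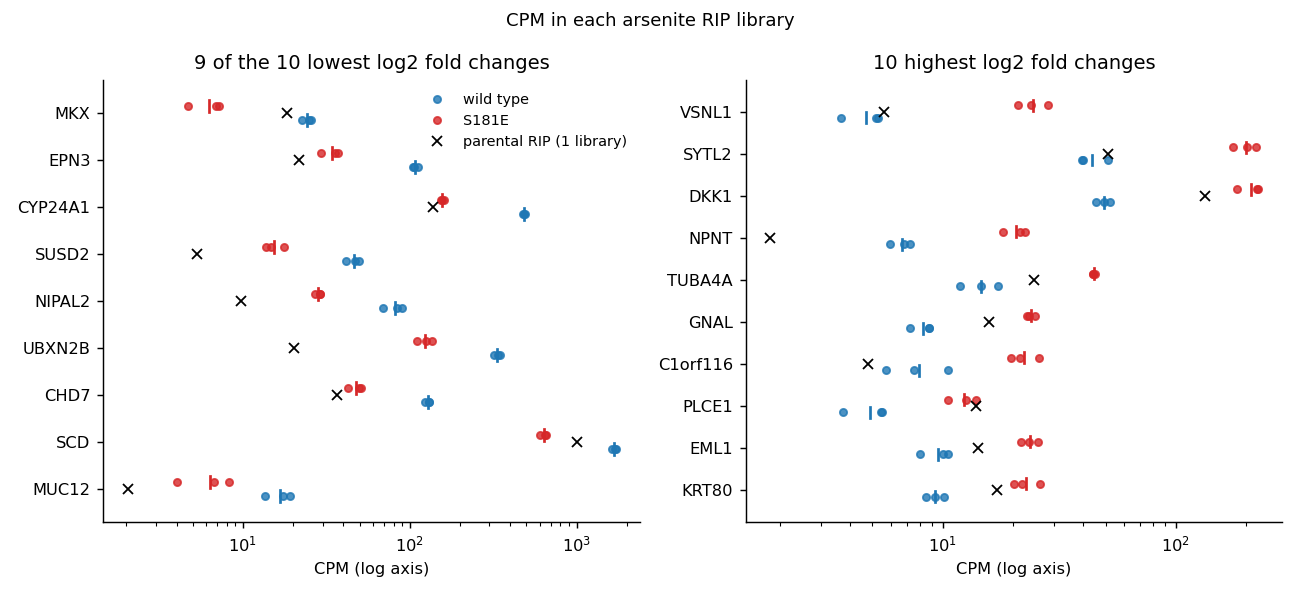
CPM (log x axis) in each of the 6 arsenite libraries for 9 of the 10 genes with the lowest (left) and the 10 with the highest (right) log2 fold change among called genes whose groups do not overlap, with group means as bars and the parental library as a cross. Wild-type (blue) and S181E (red) points are apart for every gene shown, for example 485, 478 and 490.2 CPM against 161, 153 and 156 CPM for CYP24A1.

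Among abundant mRNAs the lower genes were led by transcripts of the mitochondrial genome and by PABPC1, the main cytoplasmic poly(A)-binding protein. PABPC1 was at 29381, 27496 and 28788 CPM in the wild-type libraries and 12848, 11351 and 11966 CPM in the S181E libraries (log2 fold change -1.25, SE 0.12, adjusted p = 2.3e-07). Every S181E value was under every wild-type value, and both groups were above the parental library (2043 CPM). PABPC1 lies on the long arm of chromosome 8 (chromosome 8, 100702051 to 100722762, minus strand) and has near-identical copies elsewhere in the genome, which makes its count uncertain. PHLDA1, which encodes a pleckstrin homology-like protein, was at 10732, 11526 and 11817 CPM in the wild-type libraries and 6874, 5902 and 7096 CPM in the S181E libraries (log2 fold change -0.78, SE 0.11, adjusted p = 4.5e-05). MT-CYB, the cytochrome b subunit of complex III, was at 31224, 35268 and 34729 CPM in the wild-type libraries and 20625, 18466 and 19593 CPM in the S181E libraries (log2 fold change -0.79, SE 0.19, adjusted p = 0.0099). Without S181E replicate 2 MT-CYB was not called (log2 fold change -0.74, adjusted p = 0.058 by the same test).

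Of the 13 mRNAs of the mitochondrial genome, 4 were lower and none higher, with a median log2 fold change of -0.50. The other lower ones were MT-CO2 (log2 fold change -0.57), MT-ND3 (-0.67) and MT-ND1 (-0.61), and MT-ND1 was called in 1 of the 6 fits that left out a library. MT-ND4, the most abundant, was at 47079, 59435 and 56909 CPM in the wild-type libraries and 41384, 34097 and 40714 CPM in the S181E libraries, groups that did not overlap, but its fold change did not pass the test (log2 fold change -0.50, SE 0.23, adjusted p = 0.23). With the replicate block MT-ND4 (adjusted p = 0.034 by the same test) and MT-CO3 (0.0056) were lower too, 6 of the 13 in all. MT-ND6 had the highest value of the 13 (0.15, adjusted p = 0.82). The share of mitochondrial rRNA, which was not tested, overlapped between the groups, with 24.4 to 29.1% in wild-type and 22.2 to 28.2% in S181E libraries.

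The abundant higher genes had smaller changes. TUBA1B, an alpha-tubulin, was at 1508, 1404 and 1508 CPM in the wild-type libraries and 2106, 2031 and 1865 CPM in the S181E libraries (log2 fold change 0.44, SE 0.09, adjusted p = 0.0022). CTSB, the lysosomal protease cathepsin B, was at 414.4, 396.3 and 368.4 CPM in the wild-type libraries and 549.9, 572.5 and 512.2 CPM in the S181E libraries (log2 fold change 0.47, SE 0.09, adjusted p = 0.0014). The S181E libraries were above the wild-type libraries for both genes by less than 1 in log2. KLF5, a zinc finger transcription factor of epithelial cells, had a log2 fold change of 0.39 and lost its call without wild-type replicate 2 (log2 fold change 0.34, adjusted p = 0.064 by the same test). The chaperone gene HSP90AA1 (0.47) was called in 2 of the 6 fits that left out a library, and ALDH1A3, an aldehyde dehydrogenase (0.29), in 1. For HSP90AA1 the parental arsenite library was at 1787 CPM, above both lines. For TUBA1B, CTSB, KLF5 and ALDH1A3 it was below both.

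The lower genes were unevenly spread over the genome, and this was seen only after the values were known, so it is given without a test. Of 196 genes tested on the long arm of chromosome 8 (starting from 45000000 on, hg38), 117 were lower (59.7%) and 0 were higher. The long arm held 2.24% of the genes tested and 25.1% of the lower genes, and 20 of the 48 genes below -1 (41.7%). Its median log2 fold change was -0.56, and 193 of the 196 genes were below 0. In 169 of them all S181E libraries lay below all wild-type libraries. KLF10, TMEM65 and LRP12 were the ones above 0, and none of them was called. The short arm, with 117 genes, had a median of 0.09, 10 higher genes and 3 lower ones (DMTN, EGR3 and HGSNAT). Outside chromosome 8 the median over 8421 genes was 0.01, and 346 (4.11%) were lower and 182 (2.16%) higher. The other 22 chromosomes without the mitochondrial one had medians between -0.02 and 0.06, and 1.63 to 6.55% of their genes were lower.

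The change from one level to the other was sharp along the chromosome. POMK, a kinase of dystroglycan glycosylation, starts at 43093498 and was at 95.5, 93.8 and 101 CPM in the wild-type libraries and 92.2, 94.2 and 97.7 CPM in the S181E libraries (log2 fold change -0.03, adjusted p = 0.94). The next gene tested, HGSNAT, a lysosomal acetyltransferase, starts at 43140464, still on the short arm, and was at 102, 92.3 and 94.1 CPM in the wild-type libraries and 55.1, 51.8 and 59.5 CPM in the S181E libraries (log2 fold change -0.80, SE 0.12, adjusted p = 7.6e-05). The wild-type and S181E libraries overlapped for the first gene and were apart for the second. Beyond the centromere the DNA repair genes SPIDR (log2 fold change -1.02) and PRKDC (-0.94), the replication helicase gene MCM4 (-0.74) and RB1CC1 (-1.39), a gene of autophagy initiation, were all lower. In windows of 10 Mb the median was 0.04 to 0.14 from the tip of the short arm to 40 Mb. It was -1.02 between 50 and 60 Mb, where all 11 genes were lower, and -0.39 to -0.79 in every later window. MYC, also on the long arm, was at 433, 481 and 471 CPM in the wild-type libraries and 457, 477 and 449 CPM in the S181E libraries, so that it stood apart from its neighbours with overlapping groups (log2 fold change -0.01, SE 0.09, adjusted p = 0.98).

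This difference was shared by genes with and without enrichment in the RIP. Enrichment over the parental arsenite RIP was taken from the Y396E and RQ arsenite libraries. Y396E had a low long-arm level as well, as given below, which lowers the enrichment of long-arm genes. The classes are therefore not independent of the difference. On the long arm the median log2 fold change was -0.55 for the 123 genes below the parental level (70 lower), -0.59 for the 56 genes at 1- to 2-fold (36 lower), -0.45 for 9 genes at 2- to 4-fold (4 lower) and -0.79 for 8 genes at 4-fold or more (7 lower). It was also seen in each library on its own. Relative to each gene's mean over the 23 mCherry libraries, the long arm lay above the genes outside chromosome 8 by 0.26, 0.25 and 0.25 (median log2 level) in the 3 wild-type arsenite libraries and below them by -0.33, -0.33 and -0.32 in the 3 S181E arsenite libraries. The RQ arsenite libraries were at 0.24 and 0.22, and the Y396E arsenite libraries at -0.35, -0.38 and -0.41. Under control conditions the wild-type libraries were at 0.32 to 0.39, RQ at 0.34 to 0.43, S181E at -0.17 to -0.15 and Y396E at -0.27 to -0.24. Wild-type and RQ were thus on one side and S181E and Y396E on the other in both treatments. DNA copy number and RNA levels in the cells were not analysed here, so a difference between the lines in how much of these mRNAs they hold and a difference in binding cannot be told apart, for this arm and for any other gene. Whether fewer cells hold an mRNA or each cell holds less of it cannot be told apart either. With the genes of chromosome 8 left out of scaling and test, 330 genes were lower and 153 higher.

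Gene lists were described by counts beside the shares over all genes (5.34% lower, 2.2% higher) and by their median beside 0.006. The median fold over the parental arsenite RIP, from the Y396E and RQ arsenite libraries, was 1.14 over all genes tested. Lists with a median below the parental level included cholesterol (0.59), proteasome (0.62), histones (0.53) and heat shock (0.52). Kallikreins (1.63), RAB GTPases (1.63) and p53 targets (1.26) were among those above it. The cholesterol group had the most lower genes among the metabolic lists, 7 of 19 tested with none higher, and a median log2 fold change of -0.46. SREBF2, the transcription factor that drives sterol synthesis, was at 986, 935 and 973 CPM in the wild-type libraries and 401, 407 and 392 CPM in the S181E libraries (log2 fold change -1.27, SE 0.10, adjusted p = 6.7e-09). INSIG1, the sterol-regulated retention factor for its activator, was at 45.0, 41.2 and 41.4 CPM in the wild-type libraries and 18.6, 18.4 and 15.3 CPM in the S181E libraries (log2 fold change -1.29, SE 0.15, adjusted p = 2.6e-06). All S181E libraries were below all wild-type libraries for both genes. SQLE, squalene epoxidase on the long arm of chromosome 8, had a log2 fold change of -1.07, and STARD4, a sterol transfer protein, of -0.69. Outside that arm 6 of 18 were lower, DHCR7 and SREBF1 among them. SREBF1 lost its call without S181E replicate 3. The summed level of the list was 2739 to 2831 CPM in wild-type and 1773 to 1809.6 CPM in S181E libraries.

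Kallikrein-related and other secreted proteases were the list with the lowest median (-0.67), with 3 of 8 lower, none higher and all 8 below 0. The 3 were KLK7, KLK10 and KLK6, serine proteases of one gene cluster on chromosome 19. KLK7 was at 125, 121 and 123 CPM in the wild-type libraries and 53.4, 48.9 and 54.0 CPM in the S181E libraries (log2 fold change -1.25, SE 0.09, adjusted p = 2.3e-09). KLK10 had a log2 fold change of -1.38 and KLK6 of -1.19. No library of one group reached the range of the other for these genes. Among 12 phosphodiesterases and PKA subunits of cAMP signalling, 2 were lower, PDE4B (154, 135 and 130.4 CPM in the wild-type libraries and 56.5, 49.7 and 56.9 CPM in the S181E libraries; log2 fold change -1.37, SE 0.11, adjusted p = 1.0e-08) and PDE7A on the long arm of chromosome 8 (log2 fold change -1.34). With the replicate block 4 of the 12 were lower.

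Immediate early genes, transcription factors and regulators that respond within minutes to stimuli, had 4 of 22 lower, none higher and a median of -0.21, and 19 were below 0. EGR3, a zinc finger factor, was at 176, 187 and 178 CPM in the wild-type libraries and 91.4, 64.2 and 73.3 CPM in the S181E libraries (log2 fold change -1.24, SE 0.21, adjusted p = 4.3e-04). The others were JUND (-0.64), the nuclear receptor NR4A1 (-0.58) and ZFP36, which promotes decay of AU-rich mRNAs (-0.51). Of 20 p53 targets 5 were lower, none was higher, and the median was -0.20. TP53INP1 (log2 fold change -1.23) and RRM2B (-0.80) lie on the long arm of chromosome 8, while BTG2, an antiproliferative deadenylation cofactor (-0.59), and SESN2, a stress-induced mTORC1 inhibitor (-0.61), do not. BBC3, also lower, lost its call without 3 of the 6 libraries taken singly (S181E replicates 1 and 3, wild-type replicate 2).

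Growth factors and their receptors changed both ways, with 4 of 26 receptor tyrosine kinases and ligands lower, 4 higher and a median of -0.03. PDGFB rose to 42.6, 44.7 and 41.2 CPM with S181E from 18.1, 21.4 and 16.3 CPM (log2 fold change 1.2, SE 0.10, adjusted p = 1.8e-08), and FGF19, a hormone-like fibroblast growth factor, rose from 91.2, 89.2 and 85.4 CPM to 157, 151 and 131 CPM (log2 fold change 0.72, SE 0.10, adjusted p = 2.8e-05). The EGF receptor ligands AREG and EREG fell, AREG from 77.7, 75.6 and 75.2 CPM to 38.2, 36.5 and 34.3 CPM (log2 fold change -1.07, SE 0.17, adjusted p = 1.4e-04) and EREG from 445, 437 and 424 CPM to 275, 285 and 258 CPM (log2 fold change -0.68, SE 0.08, adjusted p = 2.0e-06). The groups were apart for all 4 ligands. The other called genes of this list were PDGFC and ERBB3, which were lower, and EPHA2 and FGF2, which were higher, and of these ERBB3 lost its call without each of the 6 libraries and FGF2 without all but S181E replicate 2. In the TGF-beta and BMP list 2 of 21 were lower and 2 higher, namely the ligand BMP4 (0.97) and ID1 (0.56) upward and the receptor TGFBR2 (-0.65) and ID2 (-0.45) downward. ID1 lost its call without S181E replicate 2, and ID2 without all but S181E replicate 1 and wild-type replicate 2. Of 23 WNT pathway genes 2 were lower and 1 was higher. The higher one was the antagonist DKK1 (2.10), and TCF7L2, a transcription factor at the end of the pathway, was at 358, 327 and 340.2 CPM in the wild-type libraries and 195, 177 and 187 CPM in the S181E libraries (log2 fold change -0.88, SE 0.09, adjusted p = 5.6e-07). The third, GSK3A, was called in 1 of the 6 fits that left out a library, the one without wild-type replicate 3.

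Of 19 genes of the NRF2 and metallothionein response, which arsenite is known to induce, 5 were higher and 1 was lower, with a median of 0.17. TXNRD1, thioredoxin reductase, was at 195, 224 and 212 CPM in the wild-type libraries and 308, 335 and 339 CPM in the S181E libraries (log2 fold change 0.64, SE 0.08, adjusted p = 2.0e-05). SLC7A11, the cystine transporter, had a log2 fold change of 0.55, and NQO1, a quinone reductase, of 0.41. These 3 were called without each library in turn. GCLM lost its call without wild-type replicate 1 or S181E replicate 2. FTH1, ferritin heavy chain, was the lower one (-0.50) and lost its call without wild-type replicate 1 and without S181E replicate 3. With the replicate block 2 genes of this list were lower. Of 19 heat shock response genes 3 were lower and 1 was higher (4 and 2 with the block). DNAJB1, an inducible HSP40 co-chaperone, was at 506, 547 and 557 CPM in the wild-type libraries and 339, 344 and 334 CPM in the S181E libraries (log2 fold change -0.67, SE 0.09, adjusted p = 3.1e-05). HSPH1, a large stress chaperone, had a log2 fold change of -0.58 and HSF1, the heat shock transcription factor on the long arm of chromosome 8, of -0.63. Of 16 targets of ATF4, the transcription factor of the integrated stress response, 1 was lower (SESN2) and 1 higher (SLC7A11, with 2 higher under the block), and of 20 genes of the unfolded protein response and ER chaperones none was lower and 1 was higher. This one, HSPA5 (0.65), lost its call without wild-type replicate 1, wild-type replicate 2 or S181E replicate 3.

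The proteasome and the histones lay above 0 almost as a whole, with few calls. Of 31 proteasome subunits 30 were above 0, 4 were called higher and none lower, and the median was 0.37. The summed level of the list was 2583 to 2629.5 CPM in wild-type and 3179.9 to 3318 CPM in S181E libraries. The 4 were PSMD1, PSMD12, PSMC3 and PSMA3, and each lost its call without at least 3 of the libraries taken singly. All 37 replication-dependent histone genes tested were above 0, with a median of 0.43 and sums of 2295 to 2419 CPM against 3065 to 3454 CPM, but 1 was called, H2BC14, and it lost its call without each of the 6 libraries. With the replicate block 10 proteasome and 10 histone genes were higher. Histone mRNAs are near-identical to each other, which makes their counts uncertain. Among 28 cyclins and E2F cell cycle genes 3 were higher and 1 was lower, with a median of 0.24. CDK6 was at 60.6, 57.3 and 60.9 CPM in the wild-type libraries and 102, 101 and 103 CPM in the S181E libraries (log2 fold change 0.77, SE 0.13, adjusted p = 5.0e-04), RRM2, a ribonucleotide reductase subunit, had a log2 fold change of 0.45, and the lower one was MCM4. The third higher gene, MCM2, lost its call without S181E replicate 3. With the block 8 of this list were higher.

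The translation machinery, stress granule proteins and m6A factors had few calls outside the long arm of chromosome 8. Of 79 cytosolic ribosomal protein genes 1 was lower, RPS20 on the long arm of chromosome 8 (-1.01), none was higher, and the median was -0.03. With the replicate block 5 were lower. None of 61 mitochondrial ribosomal protein genes (median 0.15), 36 genes of respiratory complexes III to V (0.11), 33 hnRNP and SR splicing factors (0.09), 10 elongation factors (0.09) or 58 zinc finger genes of chromosome 19 (0.01) was called in either direction. With the block 1 mitochondrial ribosomal protein gene was higher, 1 gene of complexes III to V was higher and 1 lower, and 2 of the zinc finger genes were lower. Of 37 initiation factors 3 were lower and 1 was higher (3 higher with the block). EIF3H (-0.54) and EIF3E (-0.50) lie on the long arm of chromosome 8, and EIF2S1, which encodes the eIF2 subunit that is phosphorylated in the integrated stress response, was at 94.3, 93.3 and 102 CPM in the wild-type libraries and 126, 124 and 136 CPM in the S181E libraries (log2 fold change 0.41, SE 0.10, adjusted p = 0.0085). The third lower one, EIF4G3, lost its call without S181E replicate 2 or wild-type replicate 3. Of 17 stress granule core proteins the lower one was PABPC1 (3 lower with the block), and of 16 m6A factors the lower one was YTHDF3, an m6A reader on the long arm of chromosome 8 (-0.93). Among 37 RAB GTPases 5 were lower and none higher. Of the 36 outside the long arm of chromosome 8, 4 were lower, beside 4.11% of all genes tested outside chromosome 8. RAB7A, of late endosomes, was at 2106, 2270.4 and 2093 CPM in the wild-type libraries and 1659.9, 1363 and 1418 CPM in the S181E libraries (log2 fold change -0.55, SE 0.11, adjusted p = 0.0018), RAB5B of early endosomes had a log2 fold change of -0.66, and RAB2A, of the early secretory pathway, is on the long arm of chromosome 8 (-1.32). RAB11B and RAB22A were also lower, and lost their calls without 3 and 4 of the 6 libraries, wild-type replicate 1 and S181E replicates 2 and 3 for both and wild-type replicate 2 for RAB22A.

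Of 29 Polycomb genes 2 were lower and none higher (7 lower with the replicate block). PHC3, a subunit of Polycomb repressive complex 1, was at 556, 569.7 and 577 CPM in the wild-type libraries and 361, 344 and 386 CPM in the S181E libraries (log2 fold change -0.65, SE 0.09, adjusted p = 5.0e-05), and its paralog PHC2 had a log2 fold change of -0.43. Of 19 NF-kB genes 2 were lower, and TAB2, an adaptor of the kinase TAK1, was at 1121, 1136 and 1099.6 CPM in the wild-type libraries and 735, 637 and 632 CPM in the S181E libraries (log2 fold change -0.75, SE 0.09, adjusted p = 8.2e-06). The other, TAB3, lost its call without S181E replicate 2 or wild-type replicate 3. None of the 14 circadian clock genes was called, although 12 were below 0 (median -0.21), and 3 were lower with the block. In the remaining lists 15 poly(A)-binding proteins and partners held PABPC1, TOB2 (lower) and LARP4 (higher), 27 complex I genes held NDUFB9 (lower), 20 aminoacyl-tRNA synthetases held FARSB (higher, 3 with the block), and 23 microRNA silencing genes held AGO4 and CNOT4 (lower). The 7 CHD remodelers held CHD7 (lower, 2 with the block), 9 integrins held ITGA6 (higher, 2 with the block), 27 lysosomal genes held CTSB (higher) and GAA (lower), and 8 colon epithelial markers tested held CLDN4 (lower). Apart from PABPC1, CHD7 and CTSB, each of these lost its call without at least 2 of the 6 libraries taken singly. In all, 83 different genes of the lists were called, and 52 of them were called without each of the 6 libraries.

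None of 9 mRNAs long known as IGF2BP1 targets was called without the replicate block (median -0.03), and 2 were lower with it. ACTB, beta-actin, was at 1885, 1911 and 1792 CPM in the wild-type libraries and 2352, 2456 and 2166 CPM in the S181E libraries (log2 fold change 0.32, SE 0.15, adjusted p = 0.24). HMGA2, an architectural chromatin protein, had a log2 fold change of -0.28 with an adjusted p of 0.18, and with the block it was called lower (log2 fold change -0.28, adjusted p = 0.0039 by the same test), while ACTB was not (0.31, adjusted p = 0.072). The parental arsenite library was at 3084 CPM for ACTB, above both lines, so the ACTB values were not enriched over the background. For HMGA2 it was at 176 CPM, below both. Of the other mRNAs followed in the study, XBP1 was at -0.08 (adjusted p = 0.85), EIF2A at 0.20 (0.23), GARS1 at -0.16 (0.47) and LIPA at 0.01 (0.98) on the log2 scale. CCDC127 was below the level needed for the test, at 4.51, 6.96 and 4.78 CPM in wild-type and 5.26, 9.37 and 6.17 CPM in S181E libraries. The paralogs IGF2BP2 and IGF2BP3 still gave reads in these knockout lines, IGF2BP2 at 184, 174 and 190.3 CPM in the wild-type libraries and 170.5, 172 and 183 CPM in the S181E libraries (log2 fold change -0.07) and IGF2BP3 at 162, 152 and 147 CPM in the wild-type libraries and 180.3, 176 and 182 CPM in the S181E libraries (0.22), and neither was called.

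The share of lower genes grew with enrichment in the RIP. Enrichment was the CPM over that of the parental arsenite library, taken from the Y396E and RQ arsenite libraries. No library of the comparison defined it, though the Y396E and RQ libraries entered the same fit. Outside chromosome 8, 1.5% of 3533 genes below the parental level were lower, 3.36% of 2943 genes at 1- to 2-fold, 7.48% of 1363 genes at 2- to 4-fold, 12.9% of 404 genes at 4- to 8-fold and 22.5% of 178 genes at 8-fold or more. The median log2 fold change moved from 0.06 in the first of these classes to -0.22 in the last. Higher genes were 1.87% in the first and 5.62% in the last class. Over all chromosomes, 101 of the 466 lower genes (21.7%) and 21 of the 192 higher genes (10.9%) were at least 4-fold over the parental library, against 599 of all genes tested (6.86%). The parental value was a single library, so it has no replicate check.

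**Figure D3:**
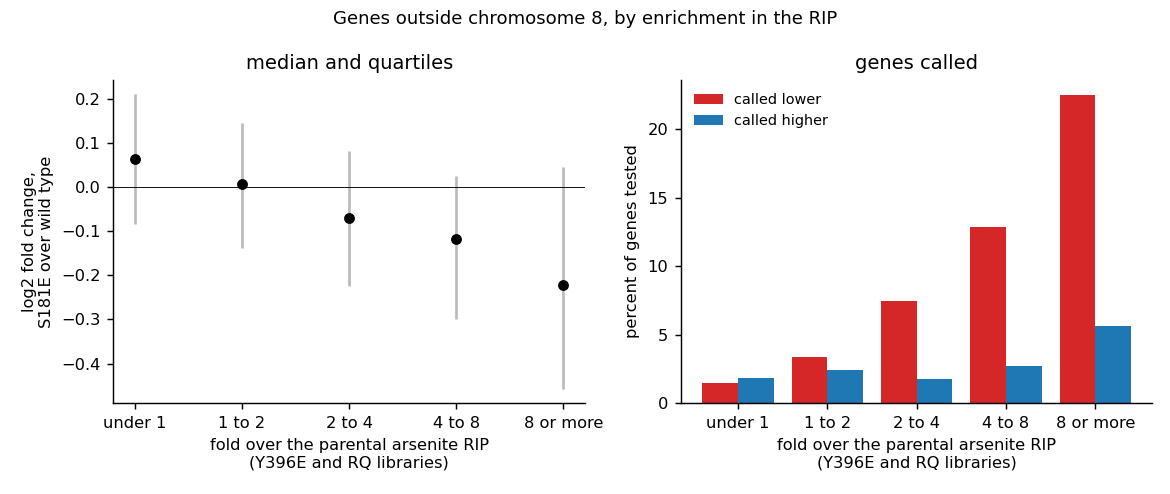
Left, median and quartiles of the log2 fold change of S181E over wild-type for genes outside chromosome 8 in 5 classes of enrichment over the parental arsenite RIP; right, percent of each class that was lower (red) or higher (blue). The lower share climbs from 1.5% to 22.5% and the median falls from 0.06 to -0.22.

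Abundance and length moved in the same direction as enrichment. Genes were put in 5 equal classes by mean CPM in the 6 wild-type and S181E control libraries. These were not in the contrast but entered the same fit. The lower share was 1.55% in the class with the lowest and 11.2% in the class with the highest level. The median log2 fold change went from 0.05 to -0.05. By exonic length it was 2.64% in the shortest class (median 0.07) and 6.75% in the longest class (median -0.06). By length of the 3' UTR of the canonical transcript the medians were 0.06 and -0.03, and by coding length 0.04 and -0.05. In the class with the highest GC content the median was -0.05, against 0.02 in each of the other 4. The motif UGGAC (a form of the m6A consensus, sense strand only) occurred at a median of 1.08 per kb of canonical transcript in lower, 1.12 in higher and 1.12 in all genes tested. ACACCC (a zipcode element, sense strand only) occurred at 0.19 per kb in lower, 0 in higher and 0.12 in all genes tested. The part of each property in the others was not tested.

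Under PBS control, in libraries that share none with the arsenite comparison, S181E was lower than wild-type in 699 genes (8% of the genes tested) and higher in 1119 (12.8%). The majority direction depended on the processing. With total counts 379 were lower and 2432 higher, with TMM over the genes not above the parental RIP 637 and 641, and in a fit of the 6 libraries alone 230 and 171 (57.4% of the calls lower). Of the 466 genes lower in arsenite, 287 (61.6%) were also lower in control, which is 41.1% of the control list, and NEK7 and DEPDC1 were higher there. Of the 192 genes higher in arsenite, 140 (72.9%) were higher in control, or 12.5% of that list, and SF3B1 and SEMA7A were lower there. Across 8734 genes, which are not independent replicates and were fitted with a shared dispersion, the log2 fold changes of the 2 treatments had a Pearson r of 0.58 and a Spearman rho of 0.50, and outside chromosome 8 of 0.55 and 0.47. On the long arm of chromosome 8 the control median was -0.53, with 110 genes lower and 0 higher, and 85 of its 117 genes lower in arsenite were lower in control as well. Outside chromosome 8 this held for 57.8% of 346.

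Most of the lowest genes had like values in control, while the values of the highest genes differed more. Among the highest genes the control log2 fold change ran from 0.39 (KRT80) to 2.85 (VSNL1). KRT80 and PLCE1 (0.85 in control) were not called there. CYP24A1 was at 412, 458 and 465 CPM in wild-type control libraries and 195, 153 and 161 CPM in S181E control libraries (log2 fold change -1.38, SE 0.10, adjusted p = 4.2e-09). MKX had a control log2 fold change of -2.01, EPN3 of -1.73, PABPC1 of -1.42 and VSNL1 of 2.85. The order of the lines was thus the same under both treatments for these genes. DKK1 was at 163, 208 and 135 CPM in wild-type control libraries and 379, 402 and 354 CPM in S181E control libraries (log2 fold change 1.18, SE 0.16, adjusted p = 1.1e-05), against 2.10 in arsenite. PHLDA1 was at 3248, 3087 and 3310.3 CPM in wild-type control libraries and 3039, 2801 and 3081 CPM in S181E control libraries (log2 fold change -0.10, adjusted p = 0.55), so that the control groups were close and the arsenite groups apart. The difference between the treatments was not called for DKK1 (0.92, SE 0.22, adjusted p = 0.066) or PHLDA1 (-0.68, SE 0.16, adjusted p = 0.053).

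**Figure D4:**
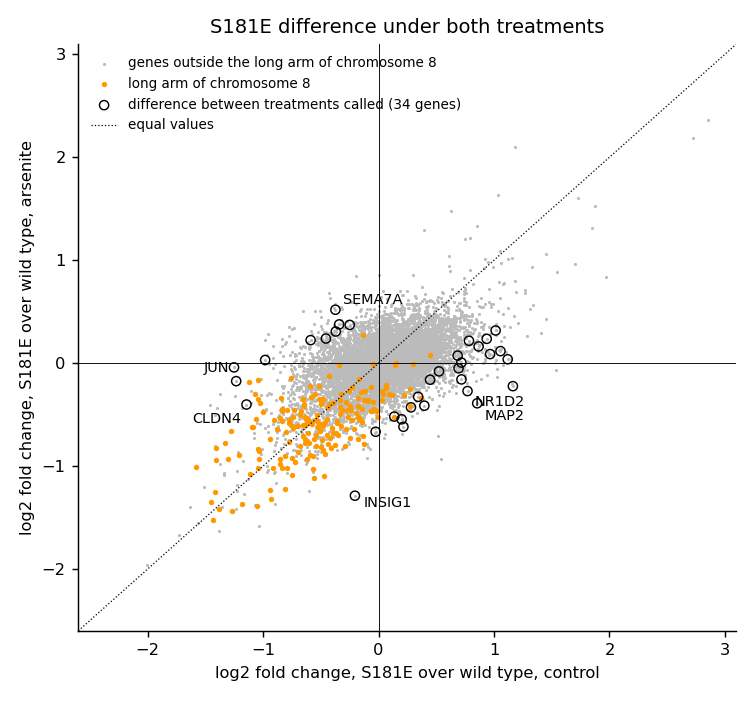
Log2 fold change of S181E over wild-type in arsenite (y axis) against the same in control (x axis) for 8734 genes, with the long arm of chromosome 8 in orange and the 34 genes with a called difference between treatments ringed. Nearly all orange points are below 0 on both axes (medians -0.56 and -0.53), and INSIG1 lies at -1.29 in arsenite and -0.20 in control.

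The interaction of genotype and treatment, which tests that difference itself, was called with a lower S181E effect in arsenite than in control for 24 genes (0.275%) and a higher one for 10 (0.114%), and had an unadjusted p under 0.05 in 1128 genes. The fit of the 12 libraries concerned called 0 genes in either direction, TMM over the genes not above the parental RIP 2 and 1, and the fit with the replicate block 207 and 63. INSIG1 was at 40.1, 58.4 and 40.9 CPM in wild-type control libraries and 38.4, 43.7 and 37.9 CPM in S181E control libraries, groups much closer than in arsenite (interaction -1.08, SE 0.21, adjusted p = 0.033). DNAJB1 was at 157, 174 and 199.5 CPM in wild-type control libraries and 187, 172 and 159 CPM in S181E control libraries, level between the lines (interaction -0.64, SE 0.13, adjusted p = 0.033). RAB7A was at 506, 391 and 393 CPM in wild-type control libraries and 486, 489 and 498 CPM in S181E control libraries (interaction -0.75, SE 0.15, adjusted p = 0.033). These genes were called lower with S181E under arsenite and not in control. The parental arsenite library was at 60.9 CPM for INSIG1 and 1005 CPM for DNAJB1, above both lines. For RAB7A it was at 124 CPM, below both. JUN, a subunit of the AP-1 transcription factor, was at 214, 244 and 286 CPM in the wild-type libraries and 197, 216 and 249 CPM in the S181E libraries in arsenite and at 29.7, 23.9 and 33.1 CPM in wild-type control libraries and 11.1, 13.2 and 12.4 CPM in S181E control libraries, so that the lines were apart in control (interaction 1.06, SE 0.19, adjusted p = 0.029). Desmoplakin, DSP, had a control log2 fold change of -0.98 and 0.03 in arsenite (interaction 1.01, SE 0.17, adjusted p = 0.025). The parental arsenite library was at 730 CPM for JUN and 153 CPM for DSP, above the arsenite means of both lines. DNAJB1, RAB7A, JUN and DSP were picked after their values were seen. These counts moved with single libraries, between 1 and 69 lower and between 0 and 20 higher when 1 of the 12 libraries was left out. The lower count was 1 without wild-type arsenite replicate 1, 2 or 3 or S181E arsenite replicate 2 or 3, 2 without S181E control replicate 1, 11 without S181E control replicate 3, 15 without S181E arsenite replicate 1, and 40, 48 and 69 without wild-type control replicates 2, 3 and 1. The higher count was 0 to 5 without any S181E library or any wild-type arsenite library, and 13 to 20 without a wild-type control library.

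The other linker mutant, Y396E, exchanges a tyrosine for glutamate in linker 2, and was tested directly against S181E under arsenite with the same S181E libraries. S181E was lower in 226 genes (2.59%) and higher in 805 (9.22%). The mRNA of the bait was among the lower ones, with a mean of 41.4 CPM in S181E and 52.1 CPM in Y396E libraries and groups apart (log2 fold change -0.36, SE 0.12, adjusted p = 0.045). Whether the amount of bait protein differed between these lines was not analysed here. With TMM over the genes not above the parental RIP 3 were lower and 1463 higher, glmTreat, which tests against the 20% change, called 0 lower and 176 higher, and a fit of the 6 libraries alone called 1351 and 1887. Of the 466 genes lower than wild-type, S181E was below Y396E in 14 (3%) and above it in 79 (17%). Of the 192 higher than wild-type, S181E was below in 7 (3.65%) and above in 29 (15.1%). The same S181E libraries chose these genes, so the counts are not independent of that choice. On the long arm of chromosome 8, 2 genes (NAPRT and SCRIB) were below and 27 above Y396E, with a median of 0.08. PABPC1 was at 7122, 7070.3 and 7569.5 CPM in Y396E libraries, lower than in S181E (log2 fold change 0.70, SE 0.12, adjusted p = 5.5e-04). The largest differences upward were RPL41, a ribosomal protein gene with near-identical copies, at 156, 119 and 125 CPM in S181E against 67.4, 55.4 and 39.7 CPM in Y396E (log2 fold change 1.27, SE 0.21, adjusted p = 4.6e-04), GCFC2, a splicing-related factor (log2 fold change 1.19, SE 0.15, adjusted p = 1.9e-05), and TMEM161B (log2 fold change 1.15, SE 0.18, adjusted p = 2.9e-04). Downward they were the mitochondrial carrier SLC25A29 at 14.1, 15.3 and 15.1 CPM against 22.2, 20.2 and 28.2 CPM (log2 fold change -0.70, SE 0.15, adjusted p = 0.0047), the sialyltransferase ST6GALNAC6 (log2 fold change -0.64, SE 0.20, adjusted p = 0.043) and FAM131A (log2 fold change -0.63, SE 0.17, adjusted p = 0.019). The largest downward differences were thus smaller than the largest upward ones. Without S181E replicate 1 there were 37 lower and 352 higher genes, without Y396E replicate 2 there were 39 and 386, and without S181E replicate 3 there were 42 and 513. Without Y396E replicate 3 or 1 the lower genes numbered 60 and 87.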

How the data were processed

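RIP-Seq with an mCherry trap, ribosomal RNA depletion and a stranded library kit was analysed for 23 mCherry-IGF2BP1 libraries and 2 parental HCT116 libraries. The values the authors deposited are raw counts per gene for 63086 genes. Per the labels and the study's methods, the authors demultiplexed with bcl2fastq 2.20.0.422, checked reads with FastQC 0.11.9, aligned to hg38 with STAR 2.7.11b and counted exon reads with featureCounts of Subread 2.0.6 (strand setting 2, GENCODE 46), which leaves out multi-mapping and ambiguous reads. Genes with near-identical copies are therefore counted too low or unevenly. Symbols and biotypes came from GENCODE 44: 61547 identifiers matched with version, 62541 with any version, and 545 did not match.

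TMM factors and CPM were computed with edgeR 4.0.16 in R 4.3.3 (limma 3.58.1), and pandas 2.3.3 and matplotlib 3.10.9 under Python 3.11.15 made the tables and plots. As in the study's methods, 8734 protein-coding genes were tested, those with over 10 CPM in 11.5 or more of the 23 mCherry libraries, in a model of 8 groups without covariates. Groups came from genotype and treatment in the labels, and the printed CPM from TMM over all 25 libraries. The contrasts were S181E against wild-type in each treatment, their interaction, and S181E against Y396E in arsenite. The members and gene lists were chosen with earlier results of these data known. The named genes are the bait and its paralogs, mRNAs followed in the study, the 10 lowest and 10 highest called genes with groups that do not overlap, the 5 most abundant called genes in each direction, the 3 extreme genes of the interaction and of the Y396E contrast, and up to 4 called genes of each list. Some genes that these rules name are not reported here. Others are named where a count was small and were picked after their values were seen.

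No pair of libraries was identical, and replicates of a group differed by more than counting noise (chi-square per degree of freedom 11.3 to 14.4). Same-numbered S181E and wild-type arsenite libraries deviated together from their group means (r = 0.28, 0.29 and 0.39), which was taken as pairing. The pairing comes from this correlation, since the labels name no shared batch. It was left out of the main fit and entered as the replicate block in an alternative. For replicates 1, 2 and 3 in turn, r was -0.02, 0.22 and 0.30 in control and 0.05, 0.26 and 0.27 for S181E with Y396E. These were not taken as pairing, although replicates 2 and 3 came near the arsenite values. The test was checked on simulated data. The alternatives covered scaling, test (DESeq2 1.42.0, glmTreat), filter, groups fitted, block and leaving out each library, and, chosen after seeing the data, leaving out chromosome 8. RNA levels in the cells were not analysed here.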

Additional observations from a re-analysis of the deposited data

Results flagged for a closer look

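In 34 genes the S181E effect differed between arsenite and control by edgeR's quasi-likelihood test of the interaction (Benjamini-Hochberg adjusted p under 0.05 over 8734 genes). A difference below 0 means that the log2 fold change of S181E over wild-type was lower in arsenite than in control. Given first are the 3 at each end of the difference among those whose arsenite groups did not overlap. INSIG1, the sterol-regulated retention factor, was lower with S181E in arsenite (log2 fold change -1.29) and at -0.20 in control, a difference of -1.08, SE 0.21, adjusted p = 0.033. For MAP2, a microtubule-associated protein, the log2 fold change was -0.39 in arsenite and 0.85 in control, a difference of -1.24, SE 0.27, adjusted p = 0.042. For NR1D2, a nuclear receptor of the circadian clock, the values were -0.27 and 0.77, a difference of -1.04, SE 0.14, adjusted p = 0.0012. In the other direction, the claudin gene CLDN4 was at -0.40 in arsenite and -1.14 in control, a difference of 0.74, SE 0.16, adjusted p = 0.044. HS6ST1, a heparan sulfate sulfotransferase, was at 0.22 and -0.59, a difference of 0.81, SE 0.18, adjusted p = 0.045. SEMA7A, a membrane-anchored semaphorin, was at 0.52 and -0.37, a difference of 0.89, SE 0.18, adjusted p = 0.033. The arsenite call of CLDN4 was lost without each of the 6 libraries taken singly, and that of SEMA7A without wild-type replicate 1 or S181E replicate 2. The single arsenite effects of MAP2, NR1D2 and HS6ST1 did not pass the test. The parental arsenite library lay above both lines for INSIG1, CLDN4, HS6ST1 and SEMA7A. It lay between the lines for NR1D2 and below them for MAP2.

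Among the others with a difference below 0, it was -1.39 for the zinc finger gene ZNF25, -1.08 for ATAD5, -0.94 for the aspartate aminotransferase GOT1, -0.88 for RAP1GDS1, -0.88 for PARVA, -0.83 for TECPR2, -0.81 for NEK7, -0.75 for RAB7A, -0.74 for LRRC58, -0.71 for the splicing factor TRA2B and -0.71 for DCAF6. It was -0.71 for the coat protein gene SEC23A, -0.70 for USP1, -0.70 for GDA, -0.67 for DEPDC1, -0.66 for CYRIB on the long arm of chromosome 8, -0.64 for DNAJB1, -0.61 for the release factor ETF1, -0.61 for WTAP, a subunit of the m6A writer, -0.60 for SMARCD1 and -0.57 for IGF2BP3. Above 0 it was 0.62 for VMP1, 0.68 for UBASH3B, 0.69 for DAP3, 0.72 for the splicing factor SF3B1, 1.01 for DSP, 1.06 for JUN and 1.21 for WNT9A. The number of such genes depended on single libraries, as given above, and all these calls were lost in a fit of the 12 libraries concerned, which called 0 genes in either direction. Scaling to the genes not above the parental RIP called 2 and 1.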

How the results depend on the processing

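Of 2882 values of 169 genes under the alternatives, 2561 stayed on the same side of the threshold, 277 (59 genes) lost their call and 44 (18 genes) gained one. None of the 122 called genes changed sign, while 23 of the 47 that were not called, all within 0.16 of 0 in log2, did so in 44 values, 13 of them with total counts. Of the genes called in arsenite, 231 lower and 59 higher ones were called without each of the 6 libraries in turn. The counts moved far more, and the cause was not tested unless the setting itself gives it. For S181E against wild-type in arsenite (466 lower, 192 higher), total counts without TMM gave 283 and 867, with an all-gene median of 0.17, and TMM over the 1532 genes not above the parental RIP gave 66 higher. Fits of only the groups compared gave 1031 and 851, with the replicate block 1140 and 994, and the block in the full model gave 751 and 354. DESeq2's Wald test gave 307 higher genes, glmTreat, which tests against the 20% change, 180 and 40, and a test of only the 599 genes 4-fold over the parental RIP 140 and 26. Leaving out 1 library gave 266 to 358 lower and 88 to 119 higher.

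In control (699 and 1119), total counts gave 379 and 2432, glmTreat 287 and 340, the enriched genes alone 85 and 73, the compared groups alone 230 and 171, with the block 560 higher, and parental-level scaling 637 and 641. For the interaction (24 and 10), parental-level scaling gave 2 and 1, glmTreat 1 and 0, the enriched genes alone 4 and 0, the compared groups alone 0 and 0, with the block 9 lower, the block in the full model 207 and 63, DESeq2 75 and 63, and filterByExpr 5 higher. Leaving out 1 library gave 1 to 69 and 0 to 20. For S181E against Y396E (226 and 805), parental-level scaling gave 3 and 1463, glmTreat 0 and 176, the enriched genes alone 11 and 197, the compared groups alone 1351 and 1887, with the block 1458 and 1954, and the block in the full model 662 and 1226. DESeq2 gave 442 lower, filterByExpr 117 and no filter 120. Leaving out 1 library gave 37 to 166 lower and 352 to 773 higher. At an unadjusted p under 0.05 the interaction had 1128 genes where the fit of the compared groups alone called 0. The replicate block of the control and Y396E contrasts rests on numbers that were not taken as pairing those libraries.

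On the long arm of chromosome 8 the median stayed 0.56 to 0.65 in log2 under that of genes outside chromosome 8 in all settings, with 66 to 172 lower genes and 0 higher among the settings that tested all 196 of them. List medians moved by more than the spread between libraries with total counts in 38 of 38 lists and with parental-level scaling in 35 of 38. Precision is limited by 3 libraries a group and by low counts, and PCR copies are not independent molecules.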
